A study of Mus musculus with 27 samples.

Results

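The retinal ganglion cell (RGC) identity genes were 10 mouse genes, chosen by name out of the 55487 genes of the count table and followed across every library of the study. They fell into 5 nuclear transcription factors (Pou4f1, Pou4f2, Isl1, Ebf1 and Ebf3) and 5 genes whose products are cytoplasmic or lie at the membrane (Elavl3, Elavl4, Sncg, Rbpms and Thy1). All 10 were found in the table. On the mouse build mm10, Sncg lies at chr14:34370274-34374789, Elavl4 at chr4:110203722-110351909, Elavl3 at chr9:22015005-22052023 and Ebf1 at chr11:44617317-45008091. Exons of Ebf3 and Elavl3 share 3.85% and 3.72% of their bases with the unnamed genes Gm45278 and Gm49318, and the strandedness of the counting was not stated. The 27 libraries came from embryonic day 14 (E14) mouse heads on a C57Bl6/J background. From each of 9 embryos, laser-capture microdissection lifted 3 pieces of the optic stalk, called dorsal, ventral and axons, the last being the bundle of RGC axons. The mutants (Smarcc1-DCT-cKO, 5 embryos) were Smarcc1 loxP/loxP embryos that carried Dct-Cre and the Z/EG reporter, and the controls (4 embryos) were littermates without Dct-Cre. Smarcc1, also called Baf155, is a core protein of the chromatin-remodelling complex SWI/SNF, and Dct-Cre is driven by a pigment cell promoter that is active in the retinal pigment epithelium and the optic stalk, though not in every cell of the optic disc. The deletion was therefore directed at the tissue around the axons and not at the RGCs themselves. Batch A held 1 control and 3 mutant embryos and batch B held 3 controls and 2 mutants.

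RGCs are the output neurons of the retina. Their cell bodies lie in the inner retina and their axons leave the eye through the optic stalk, which will form the optic nerve. Pou4f1, Pou4f2 and Isl1 are homeodomain factors that act below the proneural factor Atoh7 to specify RGCs, and Ebf1 and Ebf3 are helix-loop-helix factors of differentiating neurons that are also used in mesenchyme. Elavl3 and Elavl4 encode neuronal RNA-binding proteins of the Hu family, Rbpms an RNA-binding protein widely used to label RGCs, Sncg the small axonal protein gamma-synuclein, and Thy1 a glycoprotein anchored in the neuronal membrane. Messenger RNAs of nuclear factors are usually held near the nucleus, whereas some mRNAs are carried into axons. The pieces therefore allowed the members to be compared between stalk tissue and a region rich in axons. RGC cell bodies lie in the retina, outside all of the pieces as labelled, so this does not compare cell bodies with axons.

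The libraries held 10.9 to 33.98 M gene counts, so that 1 read was worth 0.0294 to 0.0917 counts per 1000000 (CPM). A level below 3 counts, 0.0883 to 0.275 CPM depending on the library, was taken as the floor. Smarcc1 itself was at 50.1 to 289 CPM in the 12 control libraries and at 1.86 to 107 CPM in the 15 mutant ones, on counts over the whole gene, so that the ranges overlapped. Each piece may hold several cell types, and in bulk counts fewer cells of a type and less RNA per cell cannot be told apart. Some markers differed between the labelled regions, though not in every group. The summed level of 11 pigment epithelium genes was 3634 to 13726 CPM in the mutant dorsal libraries but 81.1 to 1283 CPM in the 9 axon libraries. In the control dorsal libraries it was 39.5 to 5222 CPM and overlapped the axons. Kif1a, an axonal kinesin, was at 822 to 2814 CPM in the axon libraries and at 14.8 to 330 CPM in the dorsal ones. It was picked from a list of neuronal genes that, taken whole, was not higher in axons (below). One control embryo, number 2, stood apart in the members: it gave the highest library for Pou4f1, Isl1, Ebf1, Ebf3 and Elavl3, always in a stalk piece.

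For 3 cytoplasmic members whose regional levels are described below, the bases just before the start sites are shown. They are 250 bases from RefSeq (GRCm38.p6), all on the minus strand, written 5′ to 3′, with every CAGCTG or CAGATG (either strand, so CATCTG too) in capitals. These E-box letters are bound by proneural helix-loop-helix factors. Ebf1, the only member called between regions in the main edgeR fit (below), is not shown, and neither of its windows held an E-box. The windows are chr14:34374670-34374919 for Sncg, chr4:110287528-110287777 for Elavl4 and chr9:22052024-22052273 for Elavl3.

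Sncg: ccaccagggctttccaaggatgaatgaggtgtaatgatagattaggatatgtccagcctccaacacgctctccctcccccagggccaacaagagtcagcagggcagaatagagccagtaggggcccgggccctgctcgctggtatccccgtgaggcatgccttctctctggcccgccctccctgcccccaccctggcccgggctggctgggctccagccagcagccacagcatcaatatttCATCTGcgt

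Elavl4: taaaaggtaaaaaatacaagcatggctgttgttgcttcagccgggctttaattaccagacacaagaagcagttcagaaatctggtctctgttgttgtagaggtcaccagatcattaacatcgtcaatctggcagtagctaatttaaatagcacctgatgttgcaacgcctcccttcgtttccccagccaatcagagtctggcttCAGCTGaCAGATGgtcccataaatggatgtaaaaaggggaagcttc

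Elavl3: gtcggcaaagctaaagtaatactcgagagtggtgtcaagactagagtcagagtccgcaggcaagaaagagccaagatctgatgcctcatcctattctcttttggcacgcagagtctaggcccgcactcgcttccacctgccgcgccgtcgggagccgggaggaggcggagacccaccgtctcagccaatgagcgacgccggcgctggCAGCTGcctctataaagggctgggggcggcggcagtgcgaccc

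The Elavl4 window held CAGCTG and CAGATG 1 base apart, starting at -46 and -39 from the start, and is 1 of 4 Elavl4 windows in the table. Elavl3 held 1 such sequence at -43 and Sncg 1 at -9. The Elavl4 window shown lies wholly inside the gene, whose span ends at 110351909 on chromosome 4. The Elavl4 window just beyond that end, chr4:110351912-110352161, held no E-box of either kind. Sequence was found for 8 of the 10 members in 12 windows, and Rbpms and Thy1 were not matched. An E-box of either kind was present in 7 of the 12 windows, against 25.5% of all 32851 windows of this length. By gene these were 5 of 8 (Elavl3, Elavl4, Isl1, Pou4f1 and Sncg), since 3 of the 7 windows were those of Elavl4, and 2 of these overlapped by 234 bases and held the same pair. The letters CCCNNGGG, the core bound by Ebf factors, were present in an Ebf3 and the Sncg window, against 11.8% of all windows. The Sncg window lies partly inside the GENCODE gene, which ends at 34374789 on chromosome 14. These are matches of letters only.

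The members were unevenly detected. Rbpms had counts in 23 of the 27 libraries, Ebf1 in 22 and Sncg in 19. Elavl3 was detected in 16, Elavl4 in 15, Ebf3 in 13 and Pou4f1 in 10, while Isl1 had counts in 8, Thy1 in 7 and Pou4f2 in 2. A member present in a group was often present in only part of its libraries, at levels from under 1 to over 100 CPM. Per kilobase of exon, the highest mean level of any member in any group was that of Sncg in control axons, 529 ± 260 CPM per kb (SD, n = 4), followed by Sncg in mutant axons with 403 ± 259 (SD, n = 5). The highest mean level of a nuclear factor was that of Ebf1 in control dorsal stalk, 15.5 ± 16.4 CPM per kb (SD, n = 4). With more than 10 counts in at least 3 libraries, 9 members entered the tests among 16330 genes, and Pou4f2 did not.

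**Figure D1:**
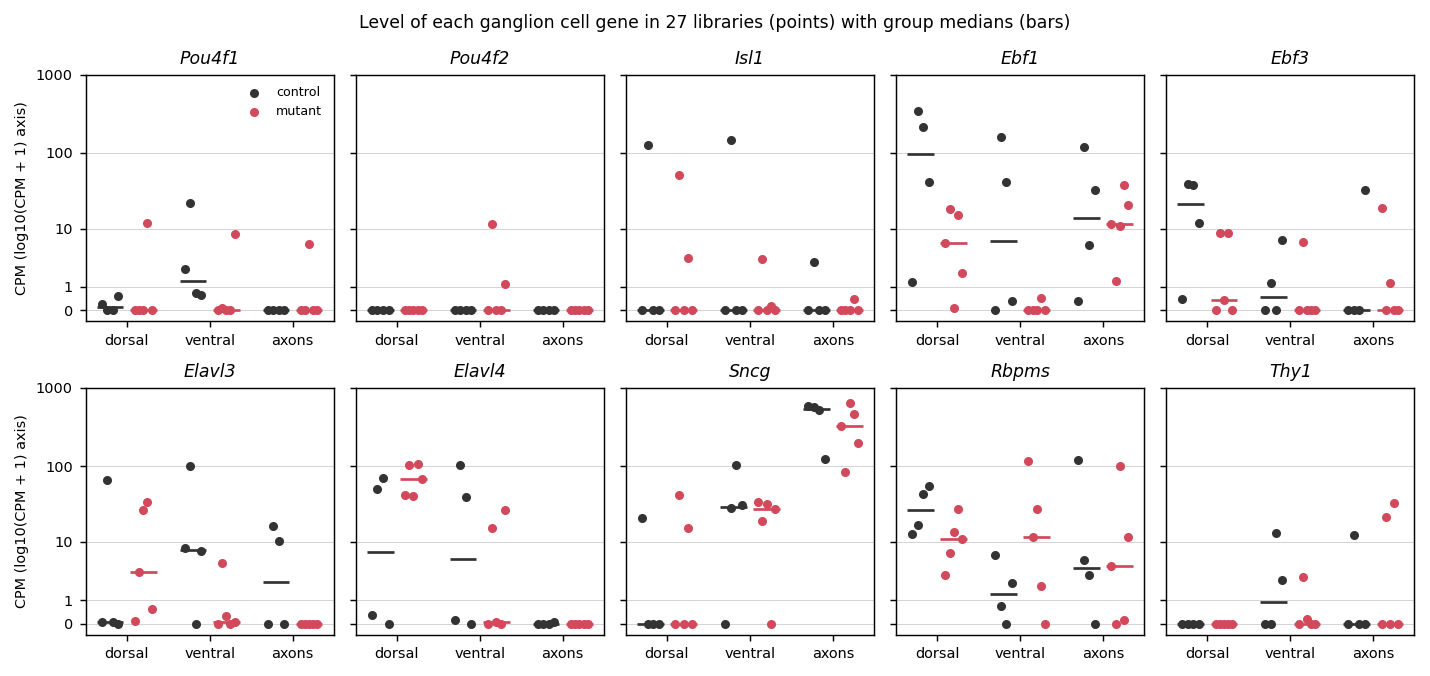
CPM of each of the 10 genes (log10(CPM + 1) axis) in the dorsal, ventral and axon pieces of 4 control (black) and 5 mutant (red) embryos, with 1 point per library and a bar at the group median. Sncg lies between 85.2 and 645 CPM in every axon library, whereas Elavl4 does not exceed 0.0458 CPM there and Pou4f2 shows counts in only 2 ventral mutant libraries.

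Sncg was the axon-rich member. It measured 589, 573, 519 and 122 CPM in control axons 1 to 4, against 21.3, 0, 0 and 0 CPM in the dorsal and 0, 29.0, 104 and 30.9 CPM in the ventral pieces of the same embryos. Mutant axons 1 to 5 had 323, 85.2, 645, 467 and 197 CPM. The mutant dorsal pieces had 0, 42.6, 0, 15.4 and 0 CPM, and the ventral pieces 34.6, 19.4, 32.3, 0 and 27.4 CPM. Every axon library thus lay above every dorsal and ventral library of its genotype. Mean Sncg in axons was 84.5 times the dorsal and 10.99 times the ventral mean in controls, and 29.6 and 15.1 times in mutants. Single stalk libraries set some of these folds. Without control dorsal 1 the control dorsal pieces were all at 0, without control ventral 3 the ventral fold in controls was 22.6, and without mutant dorsal 2 the dorsal fold in mutants was 89.3. Sncg was the only tested member in which axons lay wholly above dorsal pieces, a separation shown by 1.5% of genes in controls and 1.06% in mutants. Wholly above ventral pieces the shares were 1.11% and 0.842%, and Ebf1 joined Sncg there in the mutants.

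In the edgeR quasi-likelihood fit, which kept the embryo as a block, the log2 fold change of Sncg between axons and dorsal stalk was 10.62 ± 3.80 (SE) in controls and 6.45 ± 2.83 in mutants. Neither passed adjustment over all genes (adjusted p = 0.515 and 0.369), nor did the ventral comparisons (3.07 ± 2.35 and 3.87 ± 2.15, adjusted p = 1 and 0.529). With edgeR's newer quasi-likelihood method Sncg was called in all 4 comparisons, with adjusted p = 0.000256 (controls) and 0.000984 (mutants) against dorsal and 0.0215 and 0.00188 against ventral stalk. DESeq2 and limma called it against dorsal stalk in controls (adjusted p = 5.72e-06 and 0.00422) and mutants (0.0124 and 0.0138). Neither called it against ventral stalk. In the first edgeR fit without control embryo 2, the adjusted p against dorsal stalk in controls was 0.939. An exact sign-flip test over the 9 embryos of both genotypes, added after the values had been seen, gave p = 0.00391 (two-sided, the smallest this test can give) for axons against either stalk piece. Sncg was higher in axons in 9 of 9 embryos, by 6.78 ± 2.78 on the log2(CPM + 1) scale against dorsal and 4.32 ± 2.80 against ventral (SD). Adjusted over all genes the p-values were 0.172 and 0.18, and 0 of 16330 genes had an adjusted p under 0.05 in this test, against 470 and 436 higher in axons at an unadjusted p under 0.05.

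Elavl4 showed the opposite distribution. It was at 0, 0, 0 and 0.0458 CPM in control axons and at 0 in all 5 mutant axon libraries, that is, under the floor in each. These libraries also differed in overall measures. Mutant axons detected 9225 to 11358 genes against 12396 to 15177 in mutant dorsal stalk, without overlap, and control axons 10076 to 14118 against 10881 to 16266. Mitochondrial genes took 7.49 to 15.4% of the counts in the 9 axon libraries and 3.72 to 7.63% in the 18 stalk libraries. The part of these measures in the Elavl4 difference was not tested. The dorsal pieces measured 0.291, 51.2, 70.8 and 0 CPM in controls 1 to 4, and 42.2, 104, 41.4, 108 and 68.3 CPM in mutants 1 to 5. All 5 mutant dorsal pieces carried Elavl4, as against 2 of 4 control pieces above 1 CPM. The ventral pieces had 0.102, 103, 39.8 and 0 CPM in controls and 0, 15.7, 0.0589, 0 and 27.2 CPM in mutants, so that in mutants every dorsal library lay above every ventral one, as was found for 0.606% of genes. Against the floor of 3 counts per library, mean Elavl4 was at least 447-fold higher in mutant dorsal stalk and at least 189-fold higher in control dorsal stalk than in axons. The control bound rested on 2 of 4 dorsal libraries and was 106-fold without control dorsal 3.

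In mutants, edgeR gave Elavl4 an adjusted p = 0.0658 for axons against dorsal stalk (log2 fold change -15.25 ± 3.57, SE), 0.343 for axons against ventral and 1 for dorsal against ventral stalk. With Elavl4 at 0 in every mutant axon library, the fitted fold change does not measure a size. The bound set by the floor was -8.81 on the log2 scale. The comparison of axons with dorsal stalk passed in the fit without the replicate block (adjusted p = 0.0437), with the newer edgeR method (0.0125), with limma (8.88e-05) and with DESeq2 (1.15e-08). It did not pass in the other 15 of 19 alternatives, among them the replicate block on 2 regions only (0.47) and each library left out (0.0732 to 0.161). Over 9 embryos, Elavl4 was lower in axons than in dorsal stalk in 8 (exact sign-flip p = 0.00781, adjusted p = 0.187) and lower than in ventral stalk in 6, with 1 embryo the other way (p = 0.0312, adjusted p = 0.279). Against ventral stalk, the differences in control 1 and mutant 3, and the opposite one in control 4, rested on levels under the floor. A lower level in axons at p under 0.05 was shared by 11.1% and 11.6% of all genes in these tests, against 2.88% and 2.67% for a higher one.

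Elavl3, the other Hu family member, was at 0 in all 5 mutant axon libraries, and at 0.0917, 3.52, 26.6, 34.2 and 0.532 CPM in the mutant dorsal pieces, of which the lowest was 1 count and thus under the floor. Elavl4 lay wholly lower in mutant axons than in mutant dorsal stalk, as did 3.12% of genes, and Elavl3 did so only if that single count is taken as a level above 0. No member lay wholly lower in axons than in dorsal stalk in controls (2.91% of genes) or than in ventral stalk in mutants (2.59%). In control axons Elavl3 was at 0, 16.4, 10.3 and 0 CPM, against 0.0416, 67.0, 0.059 and 0 CPM in dorsal and 8.23, 100, 0 and 7.33 CPM in ventral pieces, so that the groups overlapped. The mutant ventral pieces had 0, 4.98, 0.235, 0 and 0.0612 CPM. For axons against dorsal stalk in mutants, edgeR gave an adjusted p = 0.209. The interaction, which asks if a regional difference depends on genotype, gave Elavl3 an adjusted p = 0.886 for axons against dorsal and 1 for dorsal against ventral (edgeR), both under 0.05 before adjustment.

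**Figure D2:**
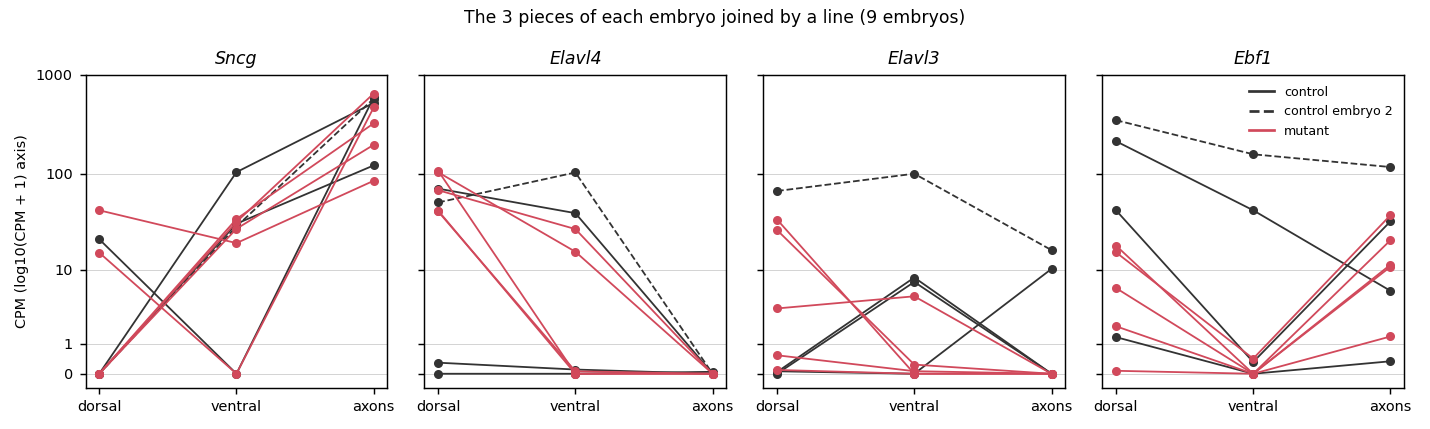
CPM (log10(CPM + 1) axis) of Sncg, Elavl4, Elavl3 and Ebf1 in the dorsal, ventral and axon piece of each of 9 embryos, joined by a line per embryo (controls black, control embryo 2 dashed, mutants red). The Sncg lines end above where they began in 9 of 9 embryos, the Elavl4 lines end at or near 0, and Ebf1 in the mutants dips to at most 0.418 CPM in the ventral piece.

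Rbpms and Thy1, the other cytoplasmic and membrane members, did not share the distribution of Sncg. Rbpms was at 120, 5.46, 3.16 and 0 CPM in control axons and at 4.46, 0, 99.6, 0.117 and 11.6 CPM in mutant axons. It was present in every dorsal piece, with 12.9, 17.2, 43.1 and 55.9 CPM in controls and 3.12 to 27.4 CPM in mutants. Control ventral pieces had 6.44, 0.686, 0 and 2.3 CPM, all below the control dorsal ones, a separation shown by 1.32% of genes (edgeR adjusted p = 1). Thy1 was at 0 in all 9 dorsal libraries. It had counts in 3 axon libraries, 12.3 CPM in control 2, 21.7 CPM in mutant 2 and 33.0 CPM in mutant 4, and in 4 ventral ones, the highest of which was control 3 with 13.3 CPM. Thy1 was therefore scattered, and none of its comparisons passed in edgeR (adjusted p from 0.473 to 1). DESeq2 called it lower in dorsal than in ventral stalk in controls (adjusted p = 0.00119) and mutants (0.0195), and higher in axons than in dorsal stalk in mutants (0.000728).

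Among the nuclear factors, the homeodomain members were sparse. Pou4f2 had 189 counts (11.6 CPM) in ventral mutant 2 and 19 counts (1.16 CPM) in ventral mutant 5, and 0 in the other 25 libraries. Isl1 was at 127, 145 and 3.16 CPM in the dorsal, ventral and axon piece of control embryo 2 and at 0 in the other 9 control libraries. In mutants it reached 51.6 CPM in dorsal 2 and 3.59 in dorsal 4, 3.5 in ventral 2, and at most 0.409 CPM in any other library. Control embryo 2 held 100% of the Isl1 signal summed over the control libraries, as CPM, and 83.6% and 87.6% of that of Pou4f1 and Elavl3. Genes with the pattern most like Isl1 were Mapt, Tac1 and Ina (Pearson r of log2(CPM + 1) 0.766, 0.762 and 0.749 over 27 libraries), of which Mapt encodes the microtubule protein tau and Tac1 a neuropeptide precursor.

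Pou4f1 was at 0 in all 4 control axon libraries and at 2.35, 22.1, 0.686 and 0.559 CPM in the control ventral pieces, which lay above the axons (as for 2.69% of genes) and above the dorsal pieces (0.208, 0, 0 and 0.538 CPM), as for 1.39% of genes. In mutants no member was wholly lower in dorsal than in ventral stalk (0.928% of genes). In controls the lowest ventral value of Pou4f1 was 9 counts and the highest dorsal one 8 counts, and edgeR gave an adjusted p = 1 for axons against ventral. DESeq2 called Pou4f1 lower in control axons than in ventral (adjusted p = 0.000101) and dorsal stalk (0.00678). In the mutants Pou4f1 was found in 1 library of each region above 1 CPM, at 11.9 CPM in dorsal 4, 8.39 in ventral 5 and 5.92 in axons 3.

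Ebf1 had counts in more libraries than any other nuclear factor, among them all 9 axon libraries. Control dorsal pieces measured 1.33, 348, 214 and 42.6 CPM, ventral pieces 0, 158, 42.6 and 0.311 CPM, and axon pieces 0.334, 117, 5.78 and 32.7 CPM. In mutants the dorsal pieces had 6.24, 18.3, 0.0707, 15.5 and 1.99 CPM and the axon pieces 11.4, 1.36, 10.8, 37.9 and 20.8 CPM, whereas the ventral pieces had 0, 0, 0, 0.418 and 0 CPM. The mutant axons lay above all mutant ventral pieces, and in this comparison Ebf1 rose by 9.44 ± 2.03 (SE) on the log2 scale (edgeR adjusted p = 0.0317). It was the 1 member of 9 called there, against 0.545% of genes, and 2 were at an unadjusted p under 0.05 (11.2% of genes). The call held in 9 of 19 alternatives, among them DESeq2 (adjusted p = 5.5e-10), limma (0.0032) and the fit without the replicate block (0.0425). The call was lost when only the 2 regions were fitted (adjusted p = 0.573), with edgeR's newer method (0.22), and when any 1 of the 5 mutant ventral libraries or mutant axons 3 or 5 was left out (0.0653 to 0.109). It was also lost without control embryo 2 (0.102), an alternative added after the values had been seen.

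Ebf1 was higher in dorsal than in ventral stalk in 9 of 9 embryos (exact sign-flip p = 0.00391, adjusted p = 0.387; mean difference 2.45 ± 1.62 (SD) on the log2(CPM + 1) scale), in mutant 3 by a single count. Ebf3 was higher dorsally in 7 embryos and at 0 in both pieces of the other 2 (exact sign-flip p = 0.0156, adjusted p = 0.467). Such a difference in the dorsal direction was found for 3.35% of genes. Ebf3 measured 0.416, 39.8, 38.6 and 11.9 CPM in control dorsal pieces, 0, 1.22, 0 and 6.96 CPM in control ventral pieces, and at most 8.55 CPM in mutant stalk, with 33.1 CPM in control axons 4 and 19.0 CPM in mutant axons 1.

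Genes of other cell types differed between the same groups as Ebf1. Within a group, high sums and high Ebf1 fell in the same libraries in some cases and not in others. The summed level of 11 mesenchyme genes was 628 to 2287 CPM in mutant axons and 53.9 to 181 CPM in mutant ventral pieces, without overlap, and 8 of the 11 were higher in axons at p under 0.05 (1 after adjustment, median log2 fold change 7.20). Twist1 and Foxc1, which mark mesenchyme around the eye, were at 0 in every mutant ventral library and had counts in 4 of 5 mutant axon libraries each. Of 8 erythroid genes 6 were higher in mutant axons than in mutant ventral stalk at p under 0.05 (2 after adjustment, median 4.20), and of 8 endothelial genes 4 (0 after adjustment, median 6.91). Their sums were 609 to 33049 and 0.584 to 404 CPM in mutant axons, and 2.27 to 1227 and 9.23 to 105 CPM in mutant ventral pieces, so that both overlapped. Among control axons the mesenchyme sum was highest in library 1 (2538 CPM), where Ebf1 was lowest (0.334 CPM), and lowest in library 2 (414 CPM), where Ebf1 was highest (117 CPM). Mutant axons 2, with the highest sum of that group, had the lowest Ebf1. Ebf3 was at 0 in 3 of 5 mutant axon libraries, and edgeR gave it an adjusted p = 0.663 against ventral stalk. The mesenchyme sum was 1160 to 10614 CPM in control dorsal and 55.6 to 373 CPM in mutant dorsal stalk, where Ebf1 averaged 151 ± 160 (SD, n = 4) and 8.42 ± 8.12 CPM (SD, n = 5). In control dorsal pieces 1 to 4 this sum was 1160, 3450, 10614 and 1853 CPM, beside Ebf1 at 1.33, 348, 214 and 42.6 CPM. The part of these cell types in the Ebf levels was not tested.

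Summed per kilobase, nuclear factors made up a small share of the members' signal in axons, where Sncg supplied most of the rest. Their share of the summed level of all 10 was 0.00482 to 4.63% in control axons and 0.13 to 0.909% in mutant axons. In control dorsal stalk it was 0.828, 76.7, 57.0 and 40.4% in embryos 1 to 4, and in mutant dorsal stalk 7.13, 18.3, 0.332, 11.2 and 1.4%. Ventral pieces had 18.6, 46.0, 3.26 and 2.29% in controls and 0 to 20.2% in mutants. Axon libraries therefore lay below most stalk libraries, with an overlap at the low end. The cytoplasmic sum in axons, 107 to 772 CPM per kb, was nearly all Sncg: without the highest member of each set it was 0.0085 to 18.3 CPM per kb. Without the highest member of each set, axons no longer lay below dorsal stalk in the mean nuclear share, which was 27.4 ± 48.5% in control axons and 24.6 ± 25.8% in control dorsal stalk (SD, n = 4), and 16.9 ± 32.8% in mutant axons and 10.7 ± 17.4% in mutant dorsal stalk (SD, n = 5). Each axon mean rested mostly on 1 library, at 99.8% in controls and 75.2% in mutants. The medians in axons and dorsal stalk were 4.93 and 15.8% in controls, and 0.927 and 0.28% in mutants. The nuclear sum was not lower in axons throughout, since it was 0.0342 to 12.8 CPM per kb in control axons and 0.226 to 72.0 CPM per kb in control dorsal stalk.

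**Figure D3:**
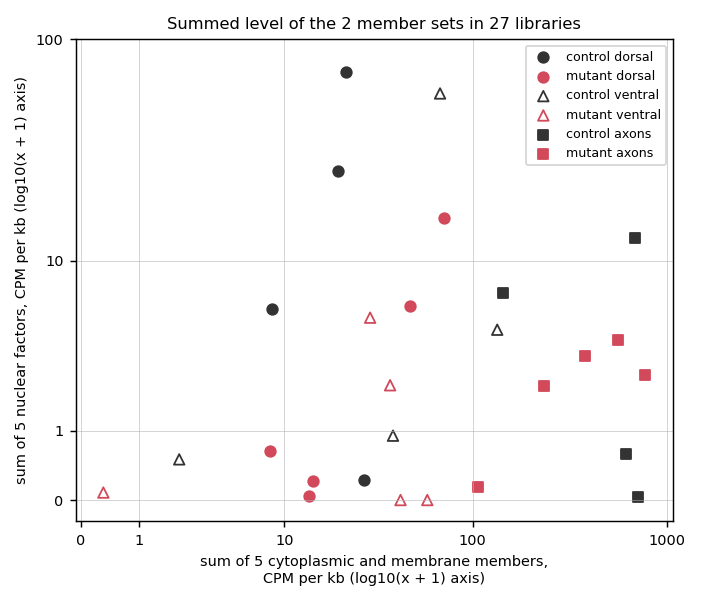
Sum of the 5 nuclear factors against the sum of the 5 cytoplasmic and membrane members in CPM per kb (both log10(x + 1) axes), 1 point per library, controls black and mutants red, with circles for dorsal, open triangles for ventral and squares for axon pieces. The 9 axon libraries sit at 107 to 772 on the horizontal axis, and span 0.0342 to 12.8 on the vertical axis.

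Between genotypes, no member was called in any region by edgeR with batch as a term. The counts were 0 of 8 tested in dorsal stalk (0.0124% of 16145 genes called), 0 of 9 in ventral stalk (0% of 16139) and 0 of 9 in axons (0% of 14977). At an unadjusted p under 0.05 the counts were 0, 1 and 0 members (5.35%, 3.19% and 3.55% of genes), limma called 0 in each, and DESeq2 called Elavl3 in ventral stalk alone (adjusted p = 0.0206). The member at unadjusted p under 0.05 was Ebf1 in ventral stalk, with 0, 158, 42.6 and 0.311 CPM in controls against at most 0.418 CPM in mutants (edgeR adjusted p = 0.999). No member's genotypes were free of overlap in any region, which 2.92% of genes were in dorsal, 1.23% in ventral and 1.28% in axon pieces.

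In an exact permutation test of log2(CPM + 1) that enumerated 126 assignments of genotype within a region, the smallest p among members was that of Elavl4 in dorsal stalk, 0.0794, where mutants were higher (3.03 on this scale). Keeping the batch composition the exact p was 0.075, from 40 assignments. Ebf1 and Elavl3 in ventral stalk, lower in mutants, each had an exact p = 0.0873 (0.2 and 0.125 within batch), and Rbpms in dorsal stalk, lower in mutants, had p = 0.0952 (0.1 within batch). None of these passed adjustment over all genes, and no gene tested did. The smallest p this test could give was 0.00794, or 0.025 within batch. With so many genes tested, passing would have needed a large share of them at that smallest value, so the failure to pass says little about the members. Sncg in axons averaged 451 ± 221 CPM in controls and 343 ± 221 in mutants (SD), a difference smaller than the spread between embryos (exact permutation p = 0.548).

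For the regions, the members called by edgeR were 0 of 9 in axons against dorsal stalk in controls (0.704% of genes called) and in mutants (0.698%), 0 of 9 in axons against ventral stalk in controls (0.251%), and 0 of 9 in dorsal against ventral stalk (0% in controls and 0.0306% in mutants). At an unadjusted p under 0.05 there were 1, 3, 1, 0 and 2 members in these comparisons (6.09%, 12.2%, 4.51%, 2.99% and 3.71% of genes). DESeq2 called 3, 4, 2, 3 and 2, and limma 1, 3, 0, 0 and 0. These comparisons share libraries, since each region enters 2 of them. The interactions of genotype with axons against dorsal, axons against ventral and dorsal against ventral called 0 of 9 members each (0.0122%, 0% and 0.00612% of genes), with 1 member each at an unadjusted p under 0.05 (4.95%, 3.89% and 2.29% of genes), 1, 2 and 1 by DESeq2 and 0 by limma. For axons against ventral that member was Ebf1 (edgeR adjusted p = 1). Over all genes tested, the median log2 fold change for axons against dorsal was -0.33 in controls and -0.91 in mutants (-0.54 and -1.04 with RLE scaling), and the fold changes above include that shift.

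Of 24 other nuclear factors of RGCs, 16 were tested and 0 were called by edgeR for axons against either stalk piece in either genotype. Against dorsal stalk in mutants 6 were lower and 0 higher at an unadjusted p under 0.05, with a median log2 fold change of -1.46 beside -0.91 for all genes. The lowest p-value was that of Atoh7, the proneural factor of RGCs. Atoh7 was at 0 in all 9 axon libraries and in all 8 control stalk libraries, and reached 405 CPM in mutant dorsal and 212 CPM in mutant ventral stalk. In controls the list had a median of -1.52, with 2 lower, Ebf4 and Sox4.

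Of 30 other cytoplasmic, cytoskeletal or membrane genes of neurons, 29 were tested, and 3 and 4 were called higher in axons than in dorsal stalk in controls and mutants, whereas 0 were called lower. Kif1a and the microtubule-binding Map1b led in each comparison. Kif1a rose by 4.58 ± 0.58 in controls and 4.55 ± 0.53 in mutants on the log2 scale (edgeR adjusted p = 0.000199 and 5.06e-05), and Map1b by 2.55 ± 0.37 and 2.74 ± 0.33 (0.00071 and 8.37e-05). The list as a whole did not shift upwards, with medians of -1.29 and -2.11 beside -0.33 and -0.91 for all genes. Tubb3, a neuronal tubulin, and Ina, an intermediate filament, resembled Elavl4 in mutants, at no more than 0.133 and 0.272 CPM in axons against medians of 73.8 and 4.14 CPM in dorsal stalk (adjusted p = 0.233 and 0.215).

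Of 14 mRNAs described in axons, 3 were called higher in axons than in dorsal stalk in controls and 2 in mutants, among them Cox4i1, a subunit of cytochrome oxidase (1.13 ± 0.16 and 0.65 ± 0.14, adjusted p = 0.000665 and 0.0363). The list medians were 0.13 and 0.43. In the sign-flip test over 9 embryos against dorsal stalk, 6 of 29 neuronal cytoplasmic and membrane genes were higher and 4 lower at p under 0.05, 0 of 16 other nuclear factors higher and 2 lower, and 4 of 14 axonal mRNAs higher and 1 lower. Over all genes in this test, 2.88% were higher and 11.1% lower.

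**Figure D4:**
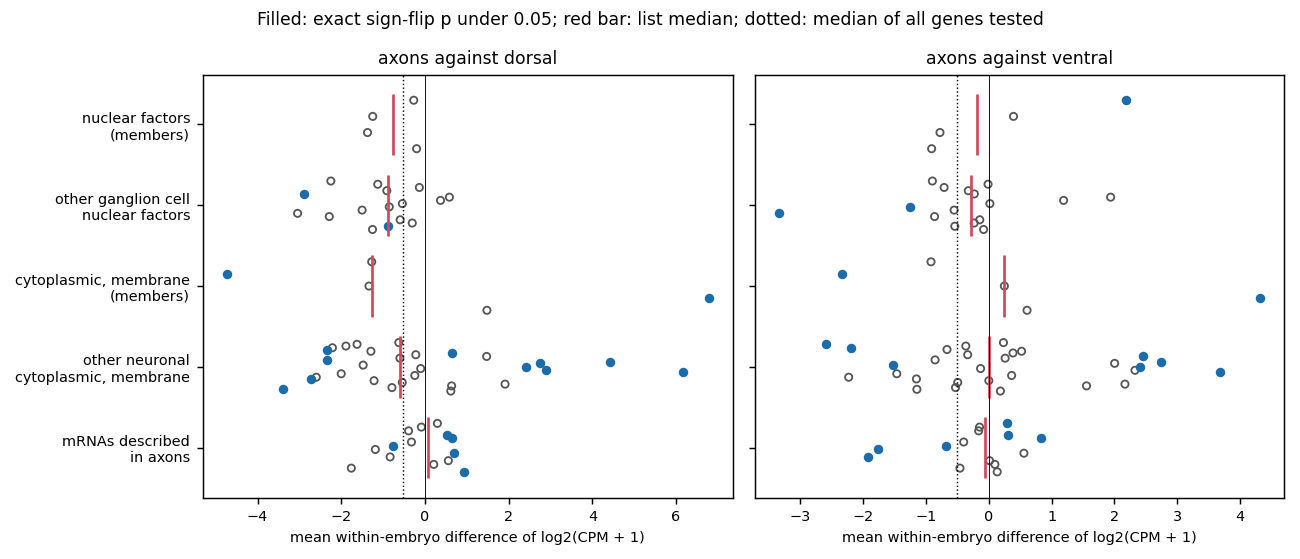
Mean within-embryo difference of log2(CPM + 1) over 9 embryos for each tested gene (points) of 5 lists, axons against dorsal (left) and against ventral stalk (right), filled where the exact sign-flip p is under 0.05, with the list median in red and the median of all genes dotted. Among the members Sncg lies farthest right (6.78 and 4.32) and Elavl4 farthest left (-4.73 and -2.34), and genes of the neuronal list spread to both sides.

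By pattern over the 27 libraries, the genes most like Sncg were Trp53inp2, Tpt1 and mt-Rnr1 (Pearson r of log2(CPM + 1) 0.863, 0.823 and 0.798, among 9347 genes with a mean of at least 10 CPM). Trp53inp2 had 938 to 1634 CPM in control and 592 to 1977 CPM in mutant axons, and no more than 139 CPM in any stalk library. For Elavl4 the closest were Adamts1, Cers6 and Nebl (0.798, 0.721 and 0.721), and for Elavl3 Rasgef1b, Megf11 and Ina (0.789, 0.744 and 0.735). Ebf1 was closest to Runx1t1 (0.661) and Rbpms to B3glct (0.625). Among the members themselves, Isl1 and Elavl3 were the most alike pair (r = 0.701), while Sncg and Elavl4 had r = -0.458. These are descriptions over libraries that share embryos and regions.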

How the data were processed

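RNA of laser-captured optic stalk pieces was amplified and sequenced (Geo-seq), giving 27 libraries. Per the labels and the study's methods, the authors aligned reads to mm10 with STAR and counted them per gene with HTSeq in the Seq2Science workflow, and the deposited values are raw counts. Versions, annotation release and strand are not given in the sources used here. Reads were PCR amplified without molecular identifiers, so the floor of 3 counts covers counting error only.

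Groups came from the sample titles. CPM was computed from the counts, and CPM per kb with GENCODE exon lengths (55227 genes matched, 260 not). Genes above 10 counts in 3 or more libraries were tested with edgeR 4.0.16 (quasi-likelihood, robust, TMM) in R 4.3.3. Genotypes were compared within a region with batch as a term, and regions and interactions in 1 model of 27 libraries with the embryo as a block. Calls required a p below 0.05 after Benjamini-Hochberg adjustment and a log2 change of more than 0.58 either way, and standard errors were derived from the F statistic. Alternatives were limma 3.58.1, DESeq2 1.42.0, other scalings, no filter, other blocks and each library left out. The fits, but not the permutation or sign-flip tests, were tried on simulated counts. The changed genes there were drawn from higher mean levels than those of the sparse members.

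Exact permutation and sign-flip tests used log2(CPM + 1). Pairing by embryo came from the titles and the design, with 3 pieces per embryo. Deviations of same-embryo pieces had a median correlation of 0.0321 (27 pairs), against -0.00967 in 96 pairs of different embryos. Per-sample genotyping was not analysed here. The members and lists were chosen with earlier results of these data known. Named genes were the members, the 2 genes per list and direction with the smallest unadjusted p under 0.05, and the 3 genes most correlated with each member that averaged at least 10 CPM. Smarcc1, Kif1a, Tac1 and the mesenchyme markers are given beside results outside this rule. Some genes that the rule would name are not reported here.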

Additional observations from a re-analysis of the deposited data

Results flagged for a closer look

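Of 49 groups of 4 or 5 libraries that could be tested, 25 held a library farther from the rest than Dixon's critical value allows. Chance flags about 1 in 20 groups of normally spread values, a rate that does not apply to such sparse counts: in 11 of the 25 the other libraries were all at 0. Control embryo 2 accounted for 7 and mutant embryo 2 for 6.

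In control embryo 2, Isl1 stood out in the dorsal (126.6 CPM), ventral (145.4 CPM) and axon piece (3.164 CPM), Elavl3 in the dorsal (67.0 CPM) and ventral piece (100.4 CPM), Pou4f1 in the ventral piece (22.12 CPM) and Thy1 in the axons (12.28 CPM). In mutant embryo 2, Isl1 stood out in the dorsal (51.63 CPM) and ventral piece (3.504 CPM). Its ventral piece was also high for Pou4f2 (11.62 CPM), Ebf3 (6.393 CPM), Elavl3 (4.979 CPM) and Thy1 (2.951 CPM).

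Pou4f1 was high in mutant dorsal 4 (11.93 CPM), mutant ventral 5 (8.387 CPM) and mutant axons 3 (5.916 CPM). Isl1 in mutant axons 4 (0.4086 CPM) and Ebf1 in mutant ventral 4 (0.4182 CPM) were the single libraries of their groups with a count. Ebf3 was high in mutant axons 1 (19.0 CPM) and control axons 4 (33.07 CPM). Rbpms was high in mutant ventral 1 (115.4 CPM), mutant axons 3 (99.62 CPM) and control axons 1 (119.8 CPM). Sncg was high in control dorsal 1 (21.33 CPM) and low in control axons 4 (121.8 CPM), where the next lowest control was at 518.7 CPM.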

How the results depend on the processing

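Of 2166 fitted differences of members under alternatives, 134 had the opposite sign to the reported one. None of these had an unadjusted p under 0.05 as reported. In 1 the alternative passed, Elavl3 in the interaction for axons against ventral, 0.29 on the log2 scale with edgeR (adjusted p = 1) and -13.18 with DESeq2 (adjusted p = 0.00146). Of 78 permutation differences between genotypes, 3 changed sign, all with log2(CPM + 0.1) in place of log2(CPM + 1): Isl1 in dorsal stalk (-0.17 to 0.27), Ebf1 in axons (-0.15 to 0.11) and Ebf3 in axons (-0.18 to 0.17). With DESeq2 the members called were 1 for genotype in ventral stalk, 3, 2 and 3 in controls (axons against dorsal, axons against ventral, dorsal against ventral), 4, 4 and 2 in mutants, and 1, 2 and 1 for the interactions in that order. limma called 1 and 3 for axons against dorsal in controls and mutants. The newer edgeR method called 1 and 2 there, and 1 for axons against ventral in controls. For axons against ventral in mutants it also called 1, but Sncg in place of Ebf1. The fit with no replicate block called 1 for axons against dorsal in mutants, and the replicate block on 2 regions only called 0 for axons against ventral in mutants, where leaving out control embryo 2 (an alternative chosen after seeing the data, as was the sign-flip test) also gave 0 and leaving out each library gave 0 to 1. All other comparisons called 0 members without each library.

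The mean nuclear share per kb in control axons (1.64%) was 13.18% on CPM and 27.41% without the highest member of each set, and in mutant axons (0.582%) 5.66% and 16.90%. Leaving out each library gave 0.651 to 2.19% and 0.501 to 0.696%. In the sign-flip tests, Sncg against both stalk pieces, Elavl4 against dorsal stalk, and Ebf1 and Ebf3 between the stalk pieces stayed under 0.05 in 12 of 12 alternatives, whereas Ebf1 and Elavl4 for axons against ventral did so in 5 and 6. Over all genes, DESeq2 called 342 to 4290 per comparison and limma 5 to 860, against 0 to 115 as reported. The cause of these differences was not tested. Levels under 3 counts are not resolved at this depth.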
